A study of Mus musculus with 6 samples.

Results

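The regions described here carried a called peak of H3K27ac after 36 h of differentiation and none before or later. H3K27ac, the acetylated form of lysine 27 of histone H3, was mapped by chromatin immunoprecipitation and sequencing (ChIP-seq) in C2C12, a line of mouse myoblasts able to form myotubes in culture. The groups were proliferating C2C12 myoblasts, the same line after 36 h of differentiation and the same line after 72 h of differentiation, with 1 H3K27ac library each, and no genetic change is given for any of them. Each library was built from DNA of 4 pooled ChIP assays, so the spread between assays was not measurable and no test between stages was made. Input libraries of the 3 stages are labelled as well and were not analysed on their own here. Overlapping peaks of the 3 deposited lists (at least 1 bp) were merged into 112926 regions, and the members, chosen by the peak calls themselves, are the 17909 regions (15.9% of all) with a peak in the 36 h list only. A peak in the 72 h list only was found at 23.9% of all regions and one in the proliferation list only at 6.7%. These shares are the outcome of the rule and nothing further is read from them. Each member consisted of exactly 1 peak of the 36 h list, and members made up 19.96% (95% Wilson interval 19.7 to 20.2%) of its 89717 peaks. They covered 4688 kb, which is 8.37% of the length under 36 h peaks.

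H3K27ac is laid down by acetyltransferases that transcription factors bring to chromatin, and it marks nucleosomes at active promoters and enhancers. When myoblasts are moved to differentiation conditions, MyoD-family factors and their partners switch on myogenin and then the contractile genes, the cells leave the cell cycle, and they fuse into multinucleated myotubes. The series concerns TAp63, a p53-family transcription factor, in this process, and none of the libraries here measures TAp63 itself. A peak list records only whether a position passed a threshold in 1 library, and in a bulk population a peak in fewer cells and a fainter peak in all cells cannot be told apart. Positions are 1-based on the mm9 mouse assembly and were not linked to genes here.

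Members were mostly small, weak peaks of the 36 h list. The deposited fold is the ratio of ChIP to local background at the summit, and its median was 4.47 in members (5% to 95% of members, 3.36 to 6.95), beside 5.71 in the 36 h peaks of regions shared with 72 h and 7.88 in those of regions held by all 3 lists. The number of DNA fragments stacked at the summit, recovered from the deposited fold and p, had a median of 15 in members, with the middle part of the distribution between 13 and 17. The corresponding medians were 20 fragments in regions of 36 h and 72 h and 29 in regions of all 3 stages. With such numbers, the counting error of a single member is large. A peak of 15 fragments lay not far above 9, the fewest that reached the lowest p of the 36 h list where the local background equalled the genome background. Because a strong 36 h peak is less easily missed elsewhere, low strength is partly built into the rule, and these values are a description.

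**Figure D1:**
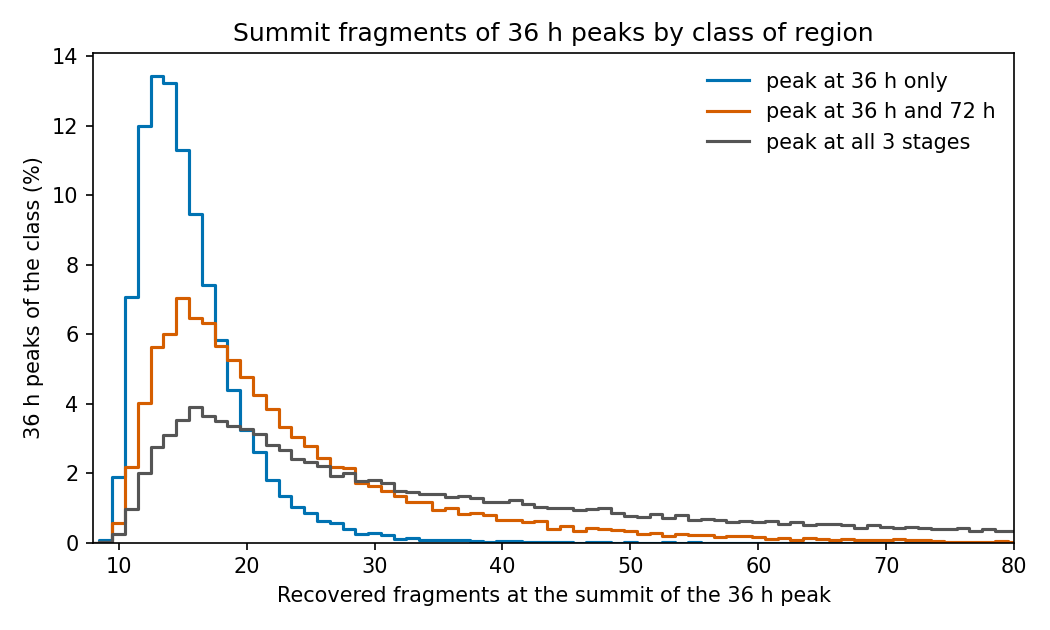
The x axis gives recovered fragments at the summit of each 36 h peak and the y axis the percent of peaks of the class, for regions with a peak at 36 h only, at 36 h and 72 h, and at all 3 stages. The 36 h only regions centre on a median of 15 fragments and the regions of all 3 stages on 29, with a long tail to higher numbers.

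The share of members fell steeply along the 36 h list. When the list was cut into 10 equal bins by its deposited p, members were 42.3% of the weakest bin, 24.7% of the fifth and 14.6% of the sixth. In the strongest bin 2 of 8972 peaks were members, and in the bin before it 47 of 8972 were. A −log10 q of at least 5 was reached by 6575 members (36.7%), compared with 82.6% of the 36 h peaks in regions of all 3 stages. A fold of at least 10 was reached by 69 of the 17909 members, compared with 18518 of all 89717 peaks of the 36 h list.

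Members were also narrow, which is partly built into the rule, since a wide 36 h peak more easily overlaps a peak of another list. The median width was 212 bp, compared with 362 bp for 36 h peaks shared with 72 h and 601 bp for those in regions of all 3 stages. The shortest peak in the list, 147 bp, was the width of 1872 members (10.5%) and of 1.60% of the 36 h peaks in regions of all 3 stages. A width of 147 bp is also the shortest in the proliferation and 72 h lists. Members wider than 500 bp numbered 1152 (6.43%), compared with 38.4% of all 36 h peaks. Those wider than 1 kb numbered 95 of 17909, compared with 14882 of all 89717. The local background equalled the genome background at 53.6% of members, compared with 39.9% of the 36 h peaks in regions of all 3 stages.

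The rule has 2 limits, the overlap and the call itself, and members lay on both. A gap of 0 to 10 bp separated 249 members from the nearest proliferation or 72 h peak, and 24 of these touched it without sharing a base. They had 10 to 30 summit fragments with a median of 15. Just outside the rule, 225 peaks of the 36 h list overlapped a peak of another list by 1 to 10 bp at most. Those had 9 to 26 fragments, also with a median of 15. At the limit of the call, the 10 members with the lowest −log10 q had values of 1.32 to 1.37, 10 to 17 fragments and folds of 2.43 to 3.19. A −log10 q below 2 was found at 674 members (3.76%).

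How far the absence from the other lists can be read depends on the number of fragments. The ChIP depth recovered for proliferation was 0.837 times, and for 72 h 0.918 times, that of 36 h. At genome background, 9 fragments reached the lowest p of the proliferation list and 8 that of the 72 h list. These numbers concern the summit only. Peak width, which is never below 147 bp in any list, was not part of them. Scaled to the depth of each other library, the summit fragments of 17561 members (98.1%) came to at least those numbers in both, whereas 1455 members (8.12%) came to at least 2 times those numbers in both. At a high local background, set to the 95% quantile of each list's peaks, 18 and 14 fragments were needed. The same 1455 members came to those numbers in both libraries, and 12 members came to 2 times those numbers. Of these 12, 6 had no peak of another list within 1 kb. They were counted whatever their own background at 36 h, and not all were strong by fold. The member on chromosome 11 from 3040024 to 3040184 was among them, with 69 fragments over a 36 h background of 22.5 and a fold of 2.09. For a position of such background, the numbers needed elsewhere may be higher than those used here. The local background of proliferation and 72 h at the members themselves is not known, since it was recovered only where a library had a peak.

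Other peaks crowded around the members, and most of those from another stage came from 72 h. A peak of another stage lay within 1 kb of 9977 members (55.7%, interval 54.98 to 56.4%), and 4148 members (23.2%, 22.5 to 23.8%) had none within 5 kb. The median gap was 830 bp to the nearest 72 h peak and 5733 bp to the nearest proliferation peak. The 72 h peak was the nearer of the 2 for 14594 members (81.5%). The 72 h list is also the longer, with 97144 peaks compared with 57101 in proliferation. Peaks of another stage lay within 1 kb on both sides of 1786 members (9.97%) and on 1 side of 8191 (45.7%).

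**Figure D2:**
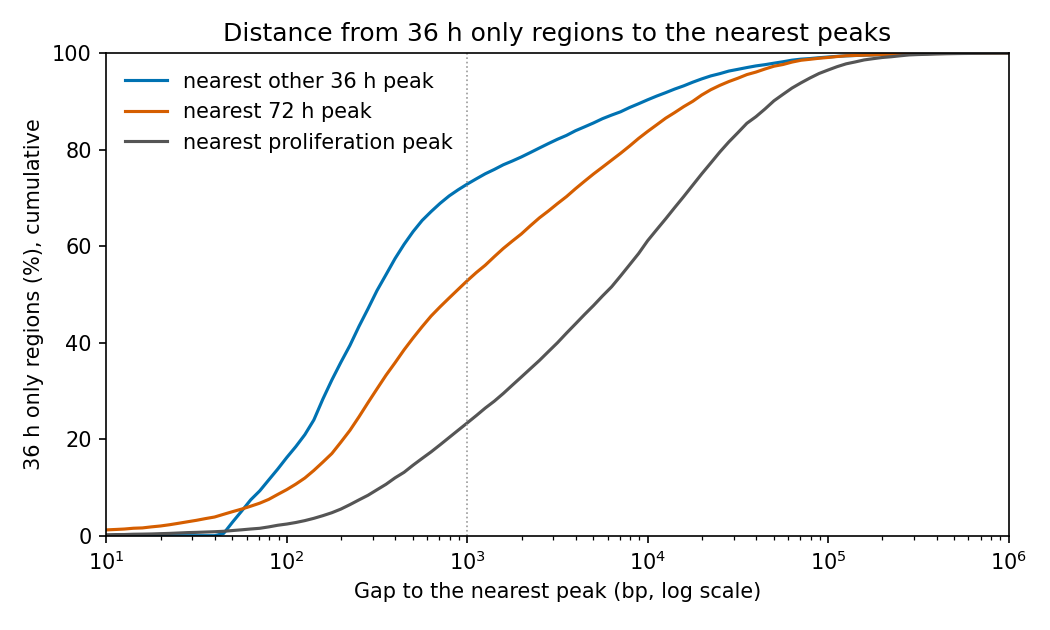
Cumulative percent of the 17909 members (y axis) against the gap in bp to the nearest peak of each list (x axis, log scale), with a dotted line at 1 kb. At 1 kb the curve has reached 72.8% for other 36 h peaks, 52.8% for 72 h peaks and 23.4% for proliferation peaks.

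Around the summit of a member, the 72 h list was depleted where the rule requires it and recovered at short distance. At 300 bp to the left of the summit 9.25% of members had a 72 h peak, at 600 bp 16.2% and at 1000 bp 16.6%. The share then declined to 11.9% at 10000 bp. Proliferation peaks stood at 2.63%, 5.79%, 6.98% and 5.39% of members at the same 4 distances. The 36 h list itself had a peak at 26.1% of members at 600 bp, compared with 12.4% at 10000 bp. The member's own peak is counted there where it reached that far. Where a peak of another stage lay within 1 kb, the median distance between its summit and that of the member was 635 bp. The member's summit lay in the part facing that peak in 52.5% of these cases.

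**Figure D3:**
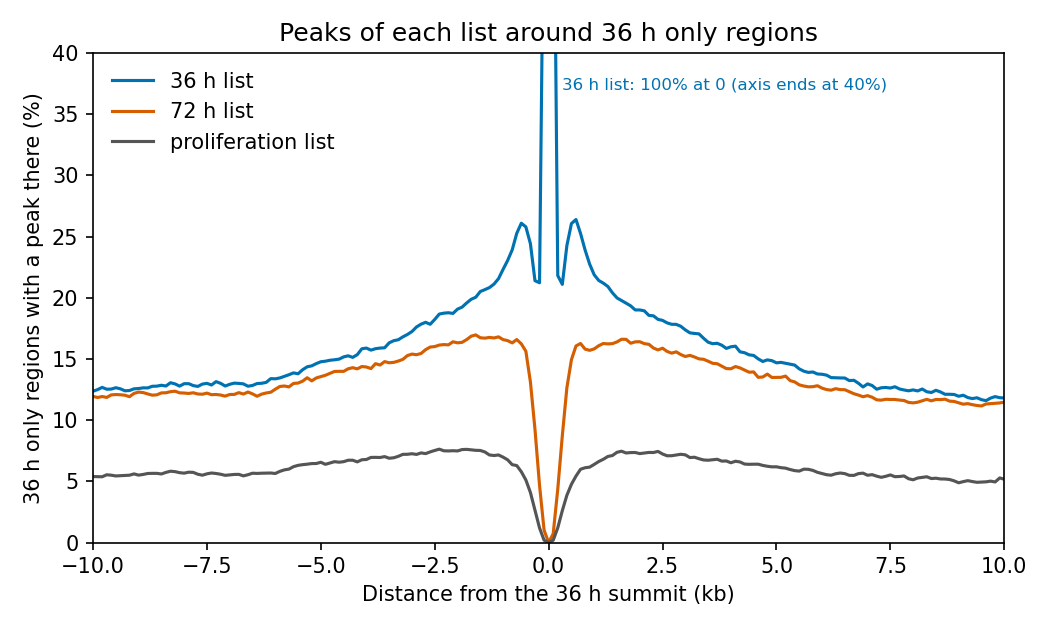
Percent of members with a called peak (y axis) at each distance from their own 36 h summit (x axis, in kb, to the left and right), for each of the 3 lists. The y axis ends below the 100% that the 36 h list reaches at 0 by definition, and the other lists are at 0% there by the rule.

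By class of neighbour, members fell into groups of similar strength. A region held by all 3 lists lay within 1 kb of 4391 members (24.5%). A further 4356 (24.3%) had no such region within 1 kb but one of 36 h and 72 h, and 968 (5.41%) had neither but a region of 72 h only. Only other members lay within 1 kb of 3752 (21.0%), and no region at all within 1 kb of 3923 (21.9%). The rest had only regions of the rarer classes nearby, with or without other members. Proliferation only regions were rare neighbours, within 1 kb of 460 members (2.57%). Median summit fragments were 15 beside regions of all 3 stages and 15 beside regions of 36 h and 72 h. They were 16 where only other members were near, and 14 where no region was near. The medians beside regions of 36 h and 72 h cover all 5064 members with such a region within 1 kb. These include members that also had a region of all 3 stages nearby. The median width was 204 bp, 217 bp, 238 bp and 203 bp in the same order and for the same groups.

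The median number of summit fragments was the same at every gap to a peak of another stage, and the median fold differed slightly. The median was 15 fragments at members with a peak of another stage within 1 kb, and 15 also at gaps of 1000 to 5000 bp, 5000 to 12500 bp, 12500 to 50000 bp and over 50000 bp. The median fold was 4.47, 4.47, 4.75, 4.75 and 4.47 in the same order. A fold of at least 8 was found at 1.68% of the 9977 members within 1 kb, at 2.11%, 2.81% and 3.49% in the next 3 bins, and at 4 of 387 (1.03%) beyond 50 kb. A further 36 h peak lay within 12500 bp of 97.6%, 94.0% and 55.5% of members in the same 3 bins and of 34.6% beyond 50 kb. A 36 h peak shared with another stage overlaps a peak of that stage. Beyond 12500 bp the gap itself thus leaves little room for such a peak, so the fall is partly built in.

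On a larger scale, most members shared a cluster of 36 h peaks with a region of all 3 stages. The 36 h peaks were stitched across gaps of up to 12500 bp. Of the members, 12316 (68.8%) then fell into clusters that also held a region of all 3 stages. The share was 81.1% for all 36 h peaks, but 44.4% of these lie in regions of all 3 stages and count by definition. The 2 shares are therefore not on equal terms, and their order is not read. Another 2697 members (15.1%) fell into clusters without a region of all 3 stages but with one of 36 h and 72 h. A further 2770 (15.5%) fell into 2002 clusters made of members alone. A cluster of its own was formed by 1478 members. The share of 36 h peaks that were members was 24.5% for peaks that stood alone, 18.1% in clusters of 2 to 4 peaks and 21.9% in clusters of 20 or more.

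Members followed each other along the chromosome in runs. A run is a series of neighbouring members with gaps of up to 12500 bp and no region of another class in between, and 8321 members (46.5%) belonged to 3314 runs of at least 2. Runs of at least 5 members numbered 152. The run with the most members, on chromosome 6 from 30588359 to 30604559, held 11 members over 16.2 kb, with 4.17 kb under peaks. Their summits had 13 to 25 fragments, the nearest 72 h peak was 1.18 kb away and the nearest proliferation peak 0.578 kb. The next 4 runs had 9 members each. The run on chromosome 4 spanned 144604470 to 144625876, with 6.11 kb under peaks and summits of 12 to 33 fragments. On chromosome 19 from 7164182 to 7186306 there were 4.50 kb under peaks, and proliferation peaks lay no nearer than 31.2 kb. The run on chromosome 12 from 85125939 to 85136333 was the most distant of the 5 from other stages, with 40.6 kb to a 72 h peak and 96.1 kb to a proliferation peak, and its summits had 11 to 23 fragments. On chromosome 14 from 26318600 to 26322955, the 9 members were packed into 4.36 kb. Chromosome 12 thus held the 1 run of the 5 with no peak of another stage nearby, while at the other 4 a 72 h peak lay within 1.18 kb of an end.

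The 10 members with the highest fold exceeded the numbers needed for a call elsewhere, by a margin that depended on the background assumed there. Their folds ran from 12.8 to 16.9, above 86.8% to 92.9% of all 36 h peaks, with 40 to 53 summit fragments and a local background at or just above that of the genome. Scaled for depth, they had 3.72 to 4.93 times the fragments needed in proliferation and 4.59 to 6.08 times those needed at 72 h, both at genome background. With the 95% quantile background these multiples were 1.86 to 2.46 in proliferation and 2.62 to 3.48 at 72 h. Genome background is the lowest possible, and 8.20% of proliferation peaks and 37.5% of 72 h peaks lay at it. A 72 h peak lay within 1 kb of 5 of the 10, and a proliferation peak of none.

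The highest fold, 16.9, belonged to a member of 1162 bp on chromosome 14 from 21415395 to 21416556. It had 53 summit fragments (95% Poisson interval 39.7 to 69.3), and scaling to the 72 h depth gave 48.7. The 72 h list had a peak of 264 bp with 18 summit fragments 358 bp away, while in proliferation the closest peak was at 43.0 kb. A 36 h peak of a region shared with another stage lay nearer, at 82 bp. This member was thus strong at 36 h and lay beside both a shared 36 h peak and a weaker 72 h peak. The second, on chromosome 9 from 62014312 to 62014937, had 50 fragments (37.1 to 65.9) and lay apart, with the nearest 72 h and proliferation peaks 43.8 kb away and another member at 260 bp. The third, also on chromosome 14 from 32859072 to 32860502, had 47 fragments (34.5 to 62.5), with gaps of 25.6 kb to proliferation and 30.9 kb to 72 h peaks. These 2 were the members among the 10 with no peak of another stage within 5 kb.

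The member on chromosome 8 from 126052268 to 126053089 had 47 fragments and a 72 h peak of 27 fragments at 253 bp. On chromosome 14 from 58153514 to 58154568 there were 44 fragments, and the nearest 72 h peak, at 1306 bp, had 16. The member on chromosome 16 from 92201106 to 92201778 had 43 fragments (31.1 to 57.9), was 60.4 kb from the nearest proliferation peak, and had a 72 h peak of the shortest width, with 10 fragments, at 255 bp. In each of these 3 the neighbouring 72 h peak had fewer fragments than the member. A 36 h peak of a region shared with another stage lay nearer than that 72 h peak, at 159, 1063 and 178 bp in turn. On chromosome 13 from 25727825 to 25728799 the member had 43 fragments and the 72 h peak at 233 bp had 28. The other chromosome 13 member, from 28756600 to 28757283, had 40 fragments, and the 72 h peak at 101 bp had 11. The member on chromosome 11 from 107509155 to 107510214 also had 40 fragments, with a 72 h peak of 11 fragments at 2399 bp. In the same order, the nearest 36 h peaks of shared regions lay 106, 1083 and 2179 bp from the chromosome 13 and chromosome 11 members. Fragment numbers of the neighbouring peaks are as recovered in their own library and not scaled for depth.

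**Figure D4:**
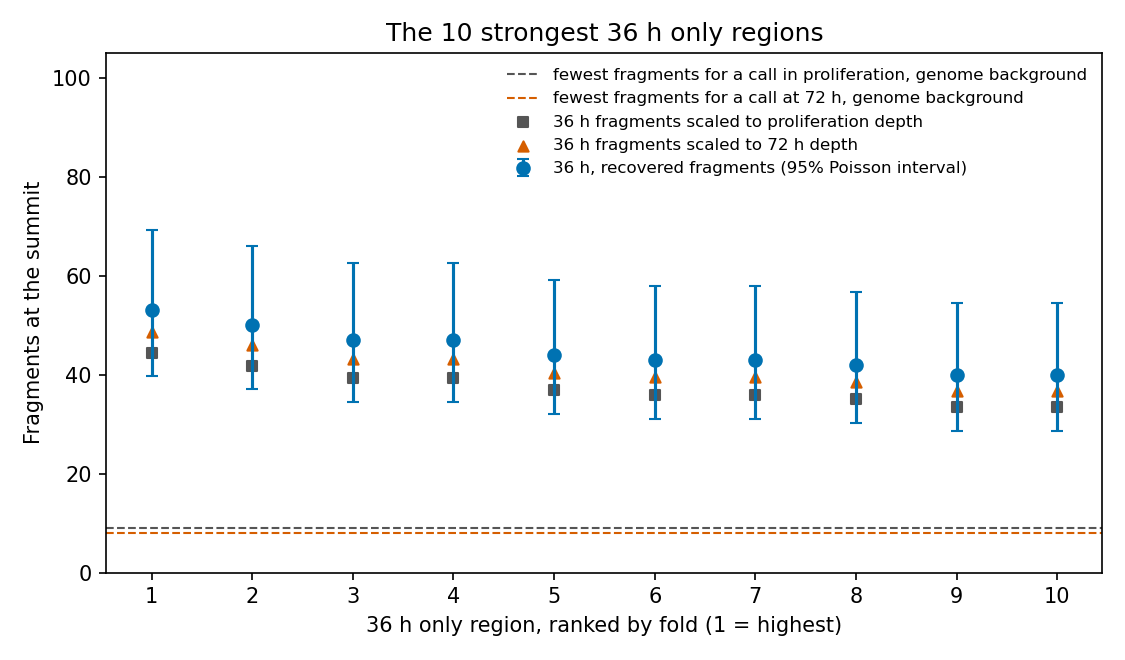
Summit fragments (y axis) of the 10 members with the highest fold, ranked on the x axis, as recovered at 36 h with 95% Poisson intervals and as scaled to the depth of the other libraries. All 10 scaled values lie above the dashed lines, which give the fewest fragments called at genome background, 9 in proliferation and 8 at 72 h.

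The widest members were broader than most peaks of the list and had more summit fragments than most members. The 10 widest measured 1782 to 2938 bp, with folds of 6.67 to 13.05 and 25 to 42 summit fragments. The 95% quantiles of all members were 6.95 for fold and 23 for fragments. In the whole 36 h list, the folds of these 10 lay above 60.8% to 87.3% of peaks. The widest of all, from 79974863 to 79977800 on chromosome 15, reached 39 fragments (27.7 to 53.3) and a fold of 10.2. A 72 h peak of 219 bp with 18 fragments lay 550 bp from it, and the gap to proliferation peaks was 5.56 kb. The member of 2552 bp on chromosome 4 from 144614704 to 144617255 belonged to the run of 9 members on that chromosome and had 33 fragments, with the nearest 72 h peak at 10.6 kb. On chromosome 3 from 101196467 to 101198748 lay the 1 member that was in both lists of 10, with 2282 bp and 42 fragments. The nearest peaks of the other stages, both at 2.7 kb, had 14 fragments each.

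Of the 10 widest, 3 had no peak of another stage within 5 kb, namely the one on chromosome 4 and a pair on chromosomes 8 and 17. On chromosome 8 from 122569751 to 122571559, a member of 1809 bp with 38 fragments had gaps of 29.3 kb to proliferation and 53.2 kb to 72 h peaks. On chromosome 17 from 71442900 to 71444693, a member of 1794 bp with 38 fragments had gaps of 32.4 kb and 33.0 kb, with another member at 138 bp. The member of 2029 bp on chromosome 11 from 7184041 to 7186069 had 29 fragments, a 72 h peak of 561 bp and 14 fragments at 1.06 kb, and the nearest proliferation peak at 49.8 kb. The member of 1851 bp on chromosome 19 from 7164182 to 7166032 had 31 fragments and opened the run of 9 on that chromosome, and a 72 h peak with 10 fragments lay 585 bp from it. It was 1 of the 3 widest members with a 72 h peak within 1 kb.

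Members occurred on every chromosome with 36 h peaks that was tallied, in proportions that differed modestly. They were 17.4% (interval 16.4 to 18.5%) of the 36 h peaks on chromosome 5, the lowest share, and 22.7% (21.6 to 23.9%) on chromosome 15, the highest. On the X chromosome the share was 19.6% (17.8 to 21.4%). Local backgrounds of the 36 h library are given beside these shares. On 7 chromosomes its median at 36 h peaks equalled the genome background, and there members made up 17.4% to 19.9% of the peaks. On the other 13 the median was 1.06 to 1.60 times the genome background and the shares were 18.1% to 22.7%, so the ranges overlapped. Without chromosome 15 the highest background was 1.16 times and the highest share 21.7%. The share of 72 h peaks that were 72 h only regions was 28.4% to 32.8% on the first 7 chromosomes and 23.9% to 29.4% on the other 13. Chromosome 15 had the highest background in each library, at 1.60 times the genome background at 36 h, 1.85 times at 72 h and 2.47 times in proliferation, and its members had a median of 17 fragments. The part of the background in the share of members was not tested. The intervals cover counting error only and treat each peak as independent. Since 46.5% of members lay in runs of at least 2, they may be too narrow.

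**Figure D5:**
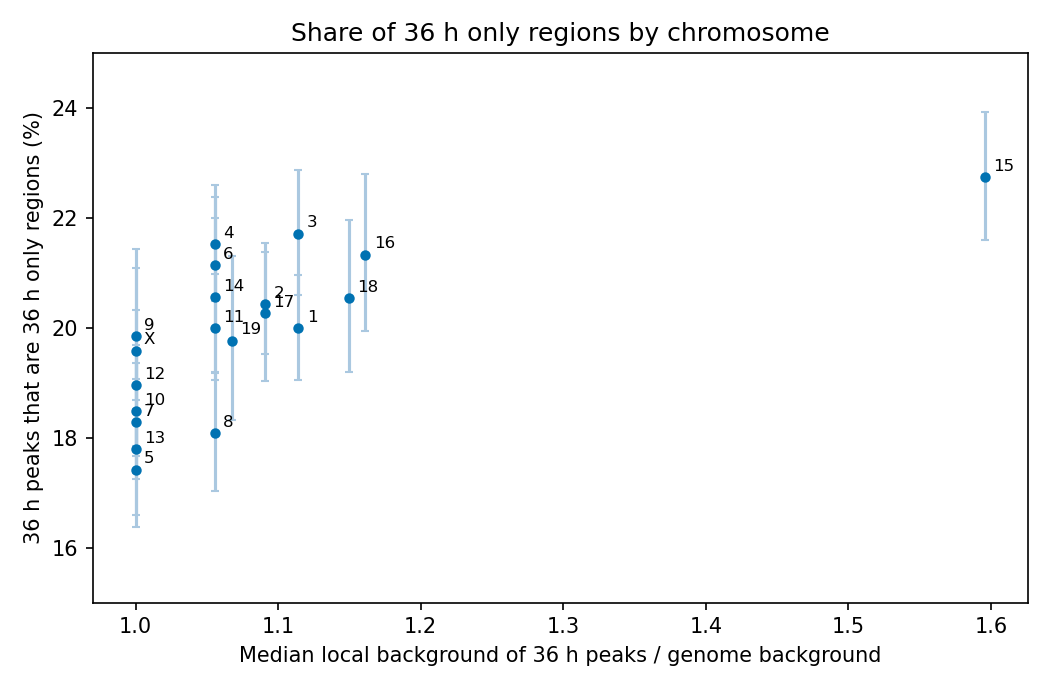
Each point is a chromosome, with the median local background of its 36 h peaks relative to the genome background on the x axis and the percent of its 36 h peaks that are members on the y axis, which does not start at 0. Bars are 95% Wilson intervals, and chromosome 15 lies apart at a background of 1.60 and a share of 22.7%.

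The other single-stage classes had peaks of similar size, and their numbers and surroundings are given beside those of the members. Regions with a 72 h peak only numbered 26999 (27.8% of the 72 h list), with medians of 233 bp and 15 fragments, and regions with a proliferation peak only numbered 7568 (13.3% of that list), with 212 bp and 16 fragments. A peak of another stage lay within 1 kb of 47.5% (46.9 to 48.1%) of the 72 h only regions and 59.7% (58.6 to 60.8%) of the proliferation only regions, compared with 55.7% of the members. No peak of another stage lay within 5 kb of 32.2%, 24.8% and 23.2% of the 3 classes in that order. Runs of at least 2 held 54.2% of 72 h only regions, 41.1% of proliferation only regions and 46.5% of members. The lists that supply the neighbours differ in length, so these shares are not on equal terms, and they carry no test.

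The number of members, and of all regions, rested on how peaks were joined. When peaks up to 1 kb apart were merged, 5299 regions of 36 h only remained, which is 10.2% of the 52162 regions then formed. As deposited the share was 15.9% of 112926 regions. With lists cut to equal length there were 9702 of 36 h only, 11372 of 72 h only and 12805 of proliferation only, so the order of the classes as deposited, with proliferation the smallest, did not hold in that setting.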

How the data were processed

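H3K27ac ChIP-seq peaks of C2C12 cells were analysed at 3 stages, 1 library per stage, with a separate peak list for each. Per the submitters' processing notes, BWA, MACS2, deepTools and build mm9 are named, with versions, settings and read totals not given in the sources used here. In the narrowPeak format, the deposited columns are positions, a fold enrichment (a ratio at the summit), a −log10 p, a −log10 q and a score. The deposited score was not used.

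Depth was recovered from the deposited values. The fold was taken as (pileup + 1) / (background + 1) and p as the Poisson tail of the pileup, the usual MACS2 form. The control behind the background is not named in the labels and was assumed to be the input. With a pileup of whole fragments times 1 factor per library (0.673, 0.698 and 0.657 for proliferation, 36 h and 72 h), 100% of the −log10 p were returned within a relative tolerance of 0.0003. The background of a peak was held at or above the genome background (1.01, 1.25 and 1.08), the lowest value shared by at least 1000 peaks. Relative depth assumes equal genome size settings. The method was tested on simulated peaks.

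Peaks sharing 1 bp were merged, and gaps were measured between edges (Python 3.11.15, pandas 2.3.3, scipy 1.17.1). Intervals are 95% Wilson or exact Poisson and cover counting error only. The Wilson intervals treat peaks as independent, although neighbouring peaks often lay close together. Regions named are the 10 of highest fold, the 10 widest, the 5 runs with the most members and those at the limits of the rule. The members and lists were chosen with earlier results of these data known. Regions were not linked to genes, and sequences were not read, since no genome of build mm9 was used here. For the same reason the labelled cell type was not checked at marker loci. No test was made between stages.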

Additional observations from a re-analysis of the deposited data

How the results depend on the processing

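Each of 7 results was recomputed under 5 other settings. The number of 36 h only regions stayed within 1.5 times of 17909 with a −log10 q of at least 5 in all 3 lists (12612) and with sharing that required 50% of the 36 h peak to be covered (24254). It was 6575 with a −log10 q of at least 5 in the 36 h list alone, 5299 with peaks up to 1 kb apart merged and 9702 with lists of equal length. Not all of these were members as reported: 6575 of the 12612, 17909 of the 24254 and 5217 of the 9702 were. In the order of these 5 settings, the peaks in such regions were 20.6%, 27.03%, 10.7%, 7.88% and 17.0% of the 36 h peaks kept in that setting. With peaks up to 1 kb apart merged, the 5299 regions held 7068 peaks of the 36 h list. In the same order, the median width of the regions was 315, 230.5, 278, 248 and 339 bp, and the median fold was 5.71, 4.75, 5.68, 4.78 and 6.02. A peak of another stage lay within 1 kb of 43.6%, 67.3%, 53.2%, 0% (by construction) and 43.9%. None lay within 5 kb of 33.9%, 17.1%, 26.1%, 57.4% and 33.5%. The share in clusters with a region of all 3 stages was 59.6%, 71.3%, 62.5%, 52.2% and 61.4%, and 51.3% with gaps of up to 5 kb. Stricter thresholds keep fewer and stronger peaks by construction, and the cause of the other shifts was not tested. The share near transcription starts was not run. No paired analysis was possible because each stage had 1 library and the results come from no test. Depth limits single members, whose summit fragments had quartiles of 13 and 17.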

Other observations

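The member with the most summit fragments was not among the strongest by fold. On chromosome 11 from 3040024 to 3040184 it had 69 fragments over a local background of 22.5, a fold of 2.09 and a width of 161 bp. Its nearest 72 h peak, 215 bp away, had more fragments, 127, over a width of 649 bp. Sequences that are not placed on a chromosome held 33 members among 192 peaks of the 36 h list.

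Among the 387 members more than 50 kb from any peak of another stage, chosen for naming after their values were seen, the highest fold was 8.62. It belonged to a member of 737 bp on chromosome 15 from 84406773 to 84407509, with 48 fragments (95% Poisson interval 35.4 to 63.6) over a local background of 3, and another member lay 225 bp away. The second, on the X chromosome from 99700203 to 99700696, had 26 fragments (17.0 to 38.1) and a fold of 8.50, with gaps of 136 kb to 72 h and 138 kb to proliferation peaks. The third, on chromosome 6 from 125826835 to 125827193, had 25 fragments (16.2 to 36.9) and a fold of 8.19, with gaps of 272 kb and 299 kb.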
